A study of Homo sapiens with 6 samples.

Results

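The MYC and MAX network is a family of basic helix-loop-helix leucine zipper proteins, and its transcripts were followed here across 3 flow conditions in a breast cancer cell line. The 10 genes MYC, MYCN, MYCL, MAX, MXD1, MXD3, MXD4, MNT, MGA and MLX were chosen by symbol, with earlier results of these libraries known, and each matched 1 of the 60591 rows of the count table. The earlier results included a lower level of MYC at low flow, so that difference is given as a description. Where MYC at low flow enters a test or a count below, its call is not read as evidence. No other difference is independent evidence either, since the list was drawn up with those results in view.

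MYC, MYCN and MYCL bind DNA as dimers with MAX and activate genes through the E-box, a short palindromic motif whose preferred form is CACGTG. MXD1, MXD3, MXD4, MNT and MGA also bind through MAX, compete for the same sites and recruit corepressors, and the MXD proteins are known for their part in differentiation and growth arrest. MLX is a second hub, which pairs with some of the repressors and with the glucose-responsive activators MLXIP and MLXIPL. MYC transcripts and protein turn over quickly, and MYC is often amplified in breast cancer.

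Every library was made from 1 line, the bone-homing variant of MDA-MB-231 (human cells of a triple-negative breast tumour), and the labels name no further mutation or drug in any group. Cells in a 3-dimensional model were held without flow (static, 0 mL/min) or exposed to fluid shear at 1 mL/min (low flow) or 15 mL/min (high flow), with 2 libraries per condition. The sources used here do not give how long flow lasted. Each flow rate was set against static, and high flow against low flow. The low and high flow comparisons share the same static libraries, so their values are set side by side and are not independent of each other.

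Library totals ran from 17822642 to 53279537 counts, and the 2 static libraries were the shallowest. Both high flow libraries were in another lane than the static and low flow libraries, by the column names. Those names also differ in punctuation, and the high flow ones carry the word sorted, which the others lack. What these further differences mean is not stated. Neither they nor the lane can be told apart from high flow. Nothing in the labels says that the 2 numbered libraries of a condition came from different cultures, and the p-values reflect no more than the spread between such libraries. That spread was estimated in 1 fit of all 6 libraries, so a comparison also draws on the condition outside it. The labels also give the cell type as endothelial cancer cells. All 8 markers of the line averaged at least 1 CPM (counts per 1000000 counts of the library, scaled by TMM), with VIM highest at 4324 CPM, whereas of 8 endothelial markers VWF averaged 0.159 CPM, CDH5 0.0176 CPM and CLDN5 0.0039 CPM. PECAM1 at 11.5 CPM and TIE1 at 39.1 CPM were the highest of the endothelial list. Its summed level was 41.0 to 50.3 CPM in static libraries, 51.8 to 59.2 CPM at low flow and 54.6 to 57.2 CPM at high flow. The 7 luminal markers summed to 59.7 to 63.9 CPM in static libraries, 68.1 to 81.7 CPM at low flow and 74.1 to 99.7 CPM at high flow, with PGR at 0 throughout. KRT19, at 70.4 and 50.5 CPM at high flow against 27.5 and 31.5 CPM in static libraries, made up most of that difference, while EPCAM had 2.69 and 2.84 CPM at high flow against 3.804 and 4.26 CPM in static libraries. The 6 osteoblast markers, with IBSP at 0, summed to 78.6 to 79.8 CPM in static libraries, 73.3 to 80.9 CPM at low flow and 90.8 to 96.3 CPM at high flow. Within that list COL1A1 had 45.0 and 37.98 CPM at high flow against 11.7 and 12.7 CPM in static libraries, and RUNX2 had 49.2 and 51.7 CPM against 65.8 and 64.7 CPM. The 6 leukocyte markers summed to 303 to 310.1 CPM in static libraries, 271 to 274 CPM at low flow and 260.3 to 341 CPM at high flow, almost all of it CD68. The part of these markers in the results below was not tested.

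The promoters of 3 repressor genes are shown because these were the members that passed the test against static at both flow rates, MXD4 and MNT upward and MXD1 downward. Each line holds 250 bases before and 50 after the start that RefSeq gives on GRCh38.p14, 5′ to 3′ on the gene's own strand. For MXD1 that start lies inside the longer GENCODE gene whose coordinates are given with its values. Capitals mark the E-box CACGTG, which reads the same on both strands.
MXD4, chr4:2262060-2262359, minus strand: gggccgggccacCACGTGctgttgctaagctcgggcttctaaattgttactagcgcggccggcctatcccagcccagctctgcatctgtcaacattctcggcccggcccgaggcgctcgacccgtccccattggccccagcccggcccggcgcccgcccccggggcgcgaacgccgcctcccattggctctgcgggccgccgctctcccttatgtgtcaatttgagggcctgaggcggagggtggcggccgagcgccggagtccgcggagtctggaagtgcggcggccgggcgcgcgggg
MNT, chr17:2401011-2401310, minus strand: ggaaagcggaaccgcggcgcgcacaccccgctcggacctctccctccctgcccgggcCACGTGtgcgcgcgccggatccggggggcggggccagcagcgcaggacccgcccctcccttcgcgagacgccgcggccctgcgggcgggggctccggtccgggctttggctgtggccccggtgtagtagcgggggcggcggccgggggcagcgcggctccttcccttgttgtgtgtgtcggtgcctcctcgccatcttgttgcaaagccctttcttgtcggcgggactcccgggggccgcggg
MXD1, chr2:69914859-69915158, plus strand: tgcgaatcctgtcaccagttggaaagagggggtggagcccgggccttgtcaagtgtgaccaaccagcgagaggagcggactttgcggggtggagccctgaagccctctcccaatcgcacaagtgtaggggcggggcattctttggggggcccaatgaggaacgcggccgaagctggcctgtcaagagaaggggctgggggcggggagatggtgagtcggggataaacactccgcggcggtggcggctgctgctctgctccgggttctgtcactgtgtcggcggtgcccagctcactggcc
Counted from the RefSeq start, the motif begins at position -238 in MXD4 and -193 in MNT, and the MXD1 window holds no CACGTG. Of the other members with a promoter in the table only MLX has one, at position -50. RefSeq promoters were found for 9 of the 10 members, and 3 of their 12 windows hold the motif (25%), against 7.26% of the 35116 promoters in the table. A match in this window is a description of the letters and not evidence of binding.

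Among the 10 members, levels were compared per kilobase of exon, because longer transcripts collect more counts. The length used is the union of all annotated exons, which differs from the longest transcript by unlike amounts. It is 5154 against 2279 bases for MXD3, 8728 against 4996 for MNT and 17651 against 14439 for MGA. The order of the members below depends on that choice. In static cells MAX was at 17.3 ± 1.12 CPM per kb and MYC at 17.1 ± 0.277 CPM per kb (SD, n = 2), and their libraries overlapped. MLX followed at 13.4 CPM per kb and MXD1 at 10.6 CPM per kb. MXD3 and MXD4 overlapped at 8.18 and 8.08 CPM per kb, and below them came MGA at 5.31 and MNT at 3.86 CPM per kb. MYCL stood at 0.235 CPM per kb, and MYCN was all but undetected, with 1 read in the second static library and none in the other 5. A count of 0 in the deepest library allows up to 3 reads, and this floor covers counting error only. Among the 3 activators of the list MYC alone exceeded 2 CPM in any library. The filter on low counts left 9 of the 10 members, all but MYCN, among 20676 genes tested.

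**Figure D1:**
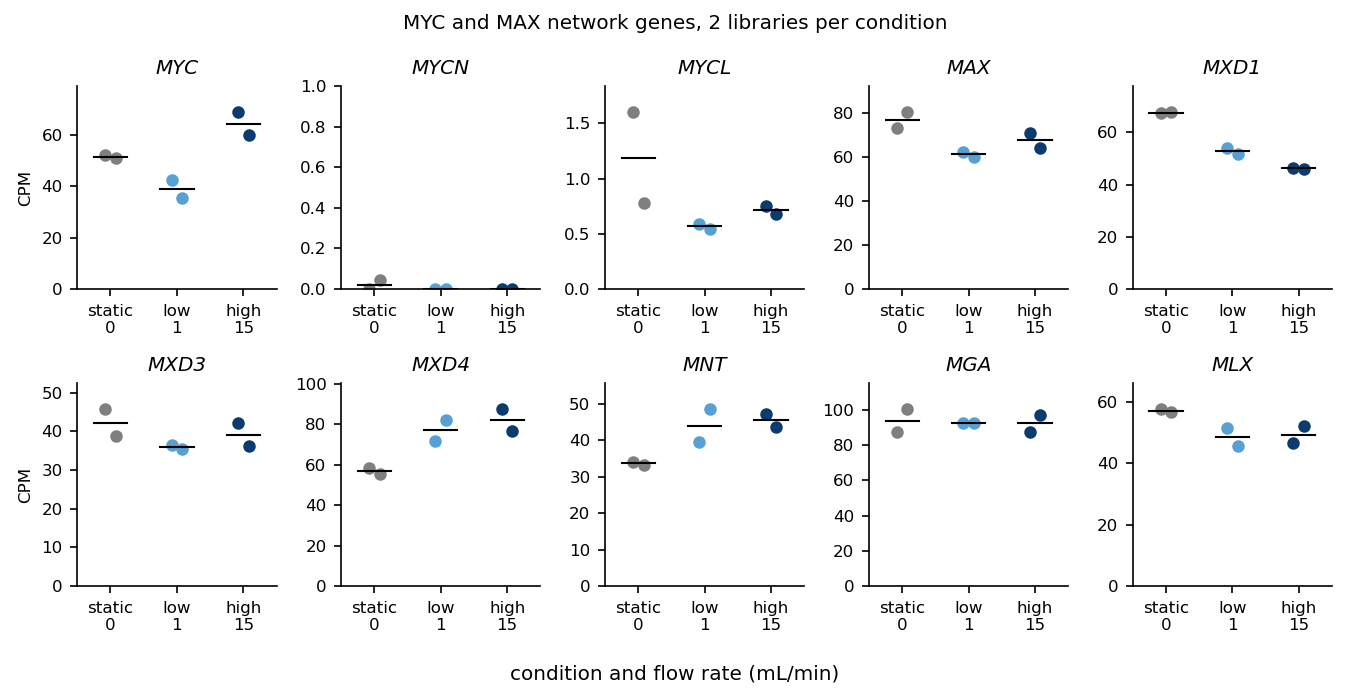
CPM of each member (vertical axis, from 0, with its own scale) in the 2 libraries of each condition (horizontal axis, flow rate in mL/min); points are libraries and bars their mean. MYC was lowest at low flow and highest at high flow, MXD1 was lower and MXD4 and MNT higher in all 4 flow libraries than in the static ones, and MGA overlapped throughout.

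At low flow, MYC and the repressor MXD1 were lower than in static cells, and MXD4 and MNT were higher. Of 9 tested members 2 were called higher, against 3.25% of all genes tested, and 2 lower, against 3.49%, by the quasi-likelihood test of edgeR with Benjamini-Hochberg adjustment over all genes and a threshold of 0.05. The lower ones are MXD1 and MYC, and since that of MYC was known beforehand nothing is read from the count. The median log2 fold change of the 9 members was -0.23, against 0.01 over all genes tested. In these bulk libraries, fewer cells with a transcript and less of it per cell cannot be told apart.

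MYC, the central activator (ENSG00000136997, chromosome 8, 127735434 to 127741434, plus strand, GRCh38), had 42.6 and 35.3 CPM at low flow, against 52.0 and 50.8 CPM in static cells. The groups did not overlap, and the low flow libraries lay further apart than the static ones. The log2 fold change was -0.40 (SE 0.11), or 1.32-fold lower at low flow. MYCL, its weakly expressed relative, had 0.593 and 0.540 CPM at low flow, against 1.60 and 0.782 CPM in static cells, from 18 to 36 counts per library over the whole series. Its log2 fold change of -1.04 (SE 0.39) did not pass (edgeR adjusted p = 0.118).

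MAX, the shared partner of MYC and the MXD proteins, had 62.0 and 60.0 CPM at low flow, against 73.0 and 80.1 CPM in static cells. The groups did not overlap, yet the log2 fold change of -0.33 (SE 0.10) fell just short of the threshold (edgeR adjusted p = 0.0526). MLX, the second hub, had 51.4 and 45.7 CPM at low flow, against 57.6 and 56.7 CPM in static cells, with a log2 fold change of -0.23 (SE 0.10, edgeR adjusted p = 0.178).

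The repressors moved in both directions. MXD1 (chromosome 2, 69897688 to 69942945, plus strand), which opposes MYC when cells differentiate, had 54.1 and 51.7 CPM at low flow, against 67.4 and 67.6 CPM in static cells. Its log2 fold change was -0.35 (SE 0.09, edgeR adjusted p = 0.0336). MXD4 (chromosome 4, 2247432 to 2262294, minus strand), a repressor of the same subfamily, went the other way, with 71.9 and 82.4 CPM at low flow, against 58.5 and 55.6 CPM in static cells. Its log2 fold change was 0.44 (SE 0.10, edgeR adjusted p = 0.0200). MNT (chromosome 17, 2384060 to 2401118, minus strand), a broadly expressed MAX-binding repressor, had 39.7 and 48.5 CPM at low flow, against 34.1 and 33.3 CPM in static cells. Its log2 fold change was 0.39 (SE 0.11, edgeR adjusted p = 0.0460). None of these 3 repressors had overlapping groups, but neither did MYCL, MAX, MLX and MXD3, which were not called. The share of all genes without overlap is not given here, and nothing is read from it.

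MXD3, a repressor expressed mainly in dividing cells, had 36.5 and 35.4 CPM at low flow, against 45.6 and 38.7 CPM in static cells (edgeR adjusted p = 0.235). MGA, a scaffold of a Polycomb-type complex that binds MAX, had 92.3 and 92.7 CPM at low flow, against 87.2 and 100.2 CPM in static cells. Its libraries overlapped, and its log2 fold change of -0.02 (SE 0.10) was the smallest of the members.

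These low flow calls rested on few libraries. No member was called without either static library or without the second low flow library, and 1, MXD4, was called without either high flow library. MYC's log2 fold change was -0.38 without the first static library, -0.41 without the second and -0.27 without the second low flow library. With per-gene offsets for transcript length and GC content, MNT was at 0.25 and no longer called (edgeR adjusted p = 0.100), while MAX passed at -0.34 (adjusted p = 0.0300). DESeq2 called 5 members at low flow, MAX among them, at -0.33 (DESeq2 adjusted p = 0.0301). Over all genes DESeq2 called 1661, against 1394 by edgeR. MYC was also among the 5, so nothing is read from that count.

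At high flow, MXD1 was lower and MXD4 and MNT were higher than in static cells. MYC did not pass the test, though both its high flow libraries lay above the static ones. Of 9 tested members 2 were called higher, against 7.49% of all genes tested, and 1 lower, against 6.43%. The median log2 fold change of the members was -0.11, against 0.00 over all genes tested.

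MYC had 68.7 and 59.9 CPM at high flow, against 52.0 and 50.8 CPM in static cells. The log2 fold change was 0.32 (SE 0.11, edgeR adjusted p = 0.0587). MAX had 70.7 and 64.0 CPM at high flow, against 73.0 and 80.1 CPM in static cells, a log2 fold change of -0.19 (SE 0.10, edgeR adjusted p = 0.220). MYCL had 0.749 and 0.676 CPM at high flow, against 1.60 and 0.782 CPM in static cells, and MLX had 46.5 and 52.2 CPM at high flow, against 57.6 and 56.7 CPM. Neither passed (edgeR adjusted p = 0.228 for MYCL and 0.183 for MLX).

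MXD1 was called under all 12 alternatives tried, with adjusted p up to 0.0459. Its level was 46.4 and 45.9 CPM at high flow, against 67.4 and 67.6 CPM in static cells, 1.46-fold lower (log2 fold change -0.55, SE 0.10, edgeR adjusted p = 0.00166). MXD4 had 87.4 and 76.8 CPM at high flow, against 58.5 and 55.6 CPM in static cells, 1.44-fold higher (log2 fold change 0.53, SE 0.10, edgeR adjusted p = 0.00408). MNT had 47.3 and 43.8 CPM at high flow, against 34.1 and 33.3 CPM in static cells (log2 fold change 0.43, SE 0.11, edgeR adjusted p = 0.0168). MXD3, at 42.1 and 36.1 CPM at high flow against 45.6 and 38.7 CPM in static cells, overlapped, as did MGA, at 87.5 and 97.2 CPM against 87.2 and 100.2 CPM.

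GC content moved with these fold changes. Over 15148 tested genes with a GC value and a mean of at least 1 CPM, the median log2 fold change of high flow against static was -0.14 in the lowest of 4 equal GC bins and 0.21 in the highest. The longest MNT transcript is 61.4% GC, that of MXD4 57.6%, that of MYC 53.9% and that of MXD1 42.7%. With length and GC offsets, MNT was at 0.11 and lost its call (edgeR adjusted p = 0.460), MXD4 was at 0.31 and kept it (adjusted p = 0.0354), and MXD1 was at -0.50 (adjusted p = 0.00355). MXD3, at 61.3% GC, then passed as lower, at -0.29 (adjusted p = 0.0424). For low flow against static the same bins were at -0.01 and 0.06. Without the first high flow library, MXD4 (adjusted p = 0.102) and MNT (adjusted p = 0.183) were not called. Without the second static library MXD4 was at adjusted p = 0.0696 and MNT at 0.131. MNT was also lost without the first static library (adjusted p = 0.0512) and without the second high flow library (adjusted p = 0.0662).

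**Figure D2:**
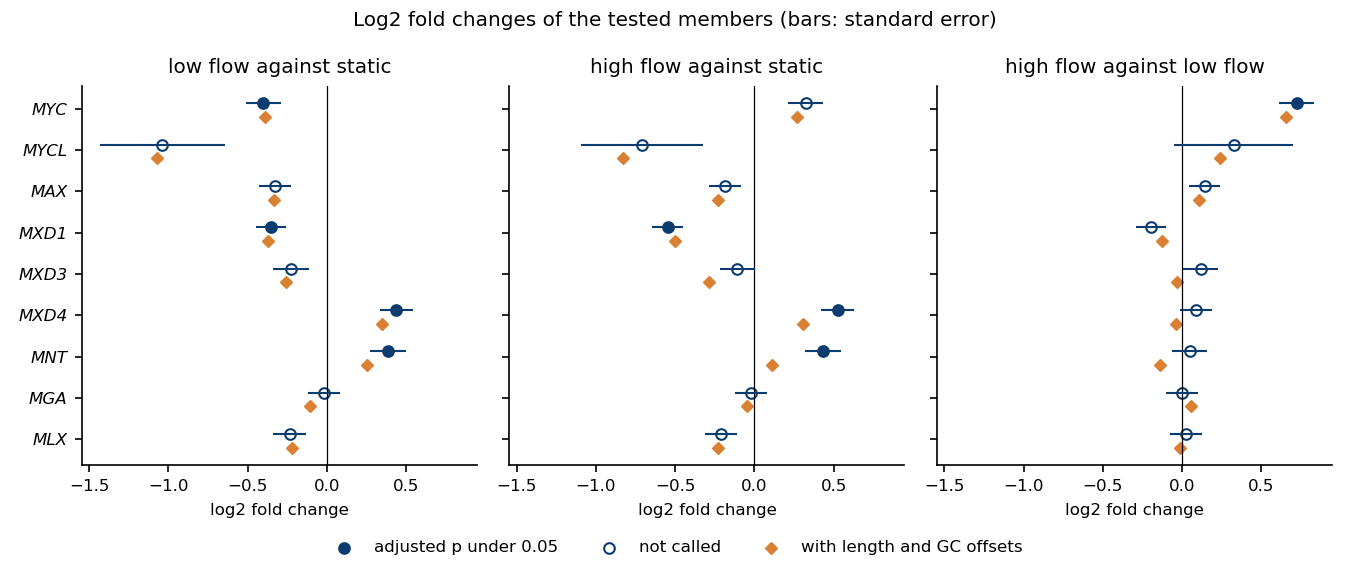
Log2 fold change (horizontal axis) of the 9 tested members in each comparison; circles with SE bars are from the fit without offsets, filled where the adjusted p was under 0.05, and diamonds are from the fit with length and GC offsets. MYC lies below 0 at low flow against static and at 0.72 for high flow against low flow, while MNT at high flow against static moves from 0.43 to 0.11 with the offsets.

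Between the flow rates MYC was the 1 member called. The lower MYC of the low flow libraries was known beforehand. That call is therefore not read as evidence, and the difference is given as a description. MYC had 68.7 and 59.9 CPM at high flow, against 42.6 and 35.3 CPM at low flow, 1.65-fold higher (log2 fold change 0.72, SE 0.11). Every high flow library was above every low flow library. Of 9 tested members 1 was called higher by edgeR, against 0.242% of all genes tested, and nothing is read from that count. No member was called lower, against 0.0919% of all genes, and 0 members were lower at an unadjusted p under 0.05 or by DESeq2. The log2 fold change of MYC was 0.66 with length and GC offsets and 0.62 without the first high flow library, where it was no longer called.

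None of the other members passed between the flow rates. Their log2 fold changes of high flow against low flow ran from -0.20 for MXD1 (SE 0.09, edgeR adjusted p = 0.520) to 0.33 for MYCL (SE 0.38, adjusted p = 0.821). MAX was at 0.14 (SE 0.10), MXD4 at 0.09 (SE 0.10) and MNT at 0.05 (SE 0.11). The median of the 9 was 0.09, against 0.01 over all genes tested.

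The balance of activator and repressors was taken within each library, as a description with no test. The ratio of MYC to MAX, per kb, was 1.05 and 0.937 in static libraries, 1.01 and 0.869 at low flow and 1.43 and 1.38 at high flow. Static and low flow overlapped, and both high flow libraries were above all others. The ratio of MXD4 to MYC was 0.478 and 0.465 in static libraries, 0.718 and 0.991 at low flow and 0.541 and 0.545 at high flow. It was highest at low flow. The summed level of MXD1, MXD3, MXD4 and MNT over that of MYC was 1.83 and 1.76 in static libraries, 2.14 and 2.74 at low flow and 1.45 and 1.51 at high flow, without overlap between any 2 conditions. The sum itself overlapped between all conditions. It was 31.7 and 29.8 CPM per kb in static libraries, 30.3 and 32.2 at low flow and 33.3 and 30.1 at high flow. The separation thus comes with the denominator, MYC, whose lower level at low flow was known beforehand. The repressors MGA and MXI1 are not in the sum.

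Within the MXD subfamily the order per kb of exon was exchanged. MXD4 over MXD1 was 0.781 and 0.740 in static libraries, 1.20 and 1.43 at low flow and 1.70 and 1.504 at high flow. By this measure MXD1 was above MXD4 in both static libraries and below it in all 4 flow libraries. Which of them is above depends on the length used. The longest transcript is 5587 bases for MXD1 and 4228 for MXD4, against exon unions of 6351 and 7058. The fold difference of the ratio between conditions does not depend on that length. In the order of levels per kb at high flow, MYC came first at 21.4 ± 2.08 CPM per kb, apart from MAX at 15.2 ± 1.07 (SD, n = 2), followed by MXD4 and MLX, which overlapped at 11.6 CPM per kb each. At low flow MAX at 13.8 and MYC at 12.98 CPM per kb overlapped, as did MYC and MLX, and MLX and MXD4. MNT overlapped with MGA at both flow rates, whereas MGA was above MNT in static cells, an order that also depends on the length used.

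**Figure D3:**
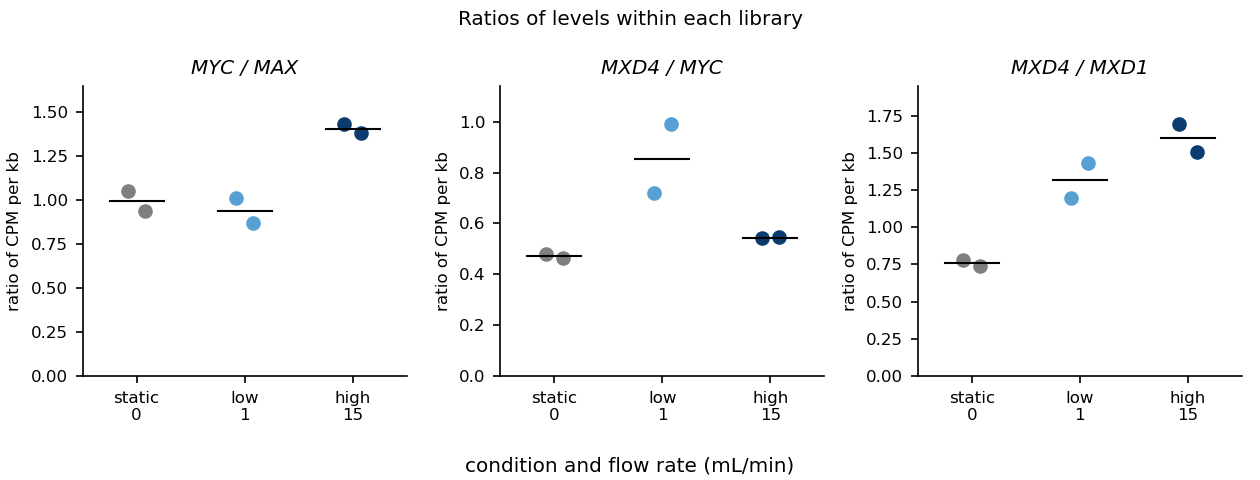
Ratio of CPM per kb of exon (vertical axis, from 0) for 3 gene pairs in each library, by condition and flow rate (horizontal axis, mL/min); bars are means of 2 libraries. MYC over MAX was 1.38 and 1.43 at high flow and at most 1.05 elsewhere. With the exon lengths used, MXD4 over MXD1 was under 1 in static libraries alone.

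Some members share exon sequence with neighbours on the same strand, so their counts are uncertain: 926 of the 5154 exonic bases of MXD3 lie in RAB24, 237 of 6351 in MXD1 lie in SNRNP27 and 80 of 7058 in MXD4 lie in MIR4800. MLX shares 770 bases with PSMC3IP and MXD3 shares 1158 with PRELID1 on opposite strands. MIR4800 had 40 to 269 counts per library.

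The relatives outside the list were read in the same way. MXI1, the remaining MXD-family repressor, had 47.9 and 57.4 CPM in static cells, 56.8 and 77.0 CPM at low flow and 68.2 and 66.5 CPM at high flow. It did not pass against static at low flow (edgeR adjusted p = 0.139) or at high flow (adjusted p = 0.0963). MLXIP, also called MondoA, which enters the nucleus with MLX when glucose is high, had 134 and 123 CPM at high flow, against 86.2 and 89.2 CPM in static cells (log2 fold change 0.55, SE 0.11, edgeR adjusted p = 0.00319). That call was lost with length and GC offsets (0.22, adjusted p = 0.107) and without the first high flow library (0.49, adjusted p = 0.0810). MLXIPL, its liver-type relative, averaged 0.836 CPM at high flow and 0.481 CPM in static cells and did not pass (adjusted p = 0.254).

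Targets of the MLX dimers went both ways. Of 10 such genes 7 were tested, none was called at low flow, and 3 were higher and 1 lower at high flow, against 7.49% and 6.43% of all genes tested. At low flow, 3 were higher and 1 lower at an unadjusted p under 0.05, and DESeq2 called 1 higher. Over all genes DESeq2 called 805 higher. The share of all genes at that unadjusted p is not given here, and nothing is read from these low flow counts. The median log2 fold change was 0.27 at low flow and 0.17 at high flow, against 0.01 and 0.00 over all genes tested. TXNIP, an arrestin that limits glucose uptake and the most direct readout of MLXIP, had 433 and 368 CPM in static cells, 361 and 576 CPM at low flow and 344 and 362 CPM at high flow. It passed in no comparison, and the 2 low flow libraries lay far apart. ARRDC4, a related arrestin, had 11.2 and 11.5 CPM at high flow, against 15.2 and 19.3 CPM in static cells, 1.53-fold lower (edgeR adjusted p = 0.00754), a call lost without the second static library (adjusted p = 0.161) or either high flow library (adjusted p = 0.112 and 0.0634). KLF10, a repressor induced by TGF-beta, rose 1.74-fold at high flow (204 against 117 CPM, edgeR adjusted p = 0.000381), and PFKFB3, an enzyme whose product activates glycolysis, rose 1.69-fold (162 against 95.6 CPM, adjusted p = 0.00690). FASN, the fatty acid synthase, was at 0.38 (adjusted p = 0.0149), and at -0.14 with the offsets.

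Genes that MYC is known to induce mostly had negative log2 fold changes at both flow rates. MYC itself averaged 38.9 CPM at low flow and 64.3 CPM at high flow, against 51.4 CPM in static cells. Of 65 listed genes 64 were tested, and of these 12 were lower and 1 higher at low flow, against 3.49% and 3.25% of all genes tested. At high flow 15 were lower and 1 higher, against 6.43% and 7.49%. The median log2 fold change was -0.23 at low flow and -0.17 at high flow, against 0.01 and 0.00 over all genes tested, and 56 and 50 of the 64 were negative. The list is largely made of ribosome biogenesis factors. At low flow the 4 with the smallest p were PA2G4, a growth regulator in the nucleolus, DKC1, the pseudouridine synthase, MPHOSPH10, of the small subunit processome, and NPM1, a nucleolar chaperone with many pseudogenes whose counts are therefore uncertain.

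PA2G4 had 274 and 220.4 CPM at low flow, against 361 and 375 CPM in static cells (log2 fold change -0.58, SE 0.11, edgeR adjusted p = 0.00618). DKC1 had 94.5 and 78.2 CPM at low flow, against 117 and 128 CPM in static cells (-0.50, SE 0.10, adjusted p = 0.0106). MPHOSPH10 was at -0.52 and NPM1 at -0.50. In each of these the low flow libraries were both below the static ones. At high flow NPM1 had 1081 and 1128 CPM, against 1596 and 1756 CPM in static cells (-0.60, SE 0.11, edgeR adjusted p = 0.00215). MPHOSPH10 was at -0.56, NOP58, a core protein of box C/D particles, at -0.56 and DKC1 at -0.51.

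The exceptions were MIR17HG, the host of the miR-17 cluster, at low flow and LDHA, lactate dehydrogenase, at high flow. MIR17HG had 3.12 and 2.58 CPM at low flow, against 1.16 and 1.52 CPM in static cells (log2 fold change 1.07, SE 0.28, edgeR adjusted p = 0.0285). LDHA had 1708 and 1724 CPM at high flow, against 1282 and 1208 CPM in static cells (0.46, SE 0.13, adjusted p = 0.0250). Between the flow rates none of the 64 was called by edgeR or DESeq2, and the median was 0.06. At an unadjusted p under 0.05, 4 were higher and 1 lower. Without the share of all genes at that p, nothing is read from these 2 counts. The number called against static, 13 at low flow and 16 at high flow, depended on single libraries. At low flow it was 0 without the second static library, 1 without the second low flow library and 28 without the first. It was 8 at low flow without either high flow library. At high flow it was 1 without the second static library, 0 without the first high flow library and 4 without the second. The E-box CACGTG is in 29 of the 70 promoter windows of these genes (41.4%).

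Genes that MYC is known to repress went both ways. Of 24 listed genes 20 were tested, of which edgeR called 2 lower at low flow, against 3.49% of all genes tested, and none higher. At an unadjusted p under 0.05, 4 were higher and 2 lower at low flow, and DESeq2 also called 4 higher and 2 lower. Over all genes DESeq2 called 805 higher and 856 lower. The share of all genes at that unadjusted p is not given here, and nothing is read from these counts. At high flow edgeR called 4 of the 20 higher and 3 lower, against 7.49% and 6.43%. The median log2 fold changes of the list were -0.03 at low flow and 0.03 at high flow. The higher ones at high flow were THBS1, an antiangiogenic matrix protein, at 1312 and 1285 CPM against 533 and 592 CPM in static cells, CDKN1A, the p21 cell cycle inhibitor, at 180.3 and 168 CPM against 122 and 104 CPM, the small GTPase RHOB, and the lipoprotein receptor VLDLR. The edgeR adjusted p was 0.000119 for THBS1, 0.00102 for CDKN1A, 0.00134 for RHOB and 0.0300 for VLDLR. CDKN1B, the p27 inhibitor, went against them, with 23.3 and 23.4 CPM at high flow, against 32.9 and 35.2 CPM in static cells (log2 fold change -0.55, SE 0.11, adjusted p = 0.00387). CDKN1C, the p57 inhibitor, was lower at both flow rates, at -0.80 at low flow (adjusted p = 0.00712) and -0.69 at high flow (adjusted p = 0.00764). The stress gene DDIT3 was lower at high flow (-0.62, adjusted p = 0.0104), and GADD45A at low flow (-0.64, adjusted p = 0.0215). Between the flow rates THBS1 was higher at high flow (0.79, edgeR adjusted p = 0.0169), and CDKN1B was lower, with 23.3 and 23.4 CPM at high flow, against 35.5 and 39.9 CPM at low flow (-0.69, adjusted p = 0.00427).

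**Figure D4:**
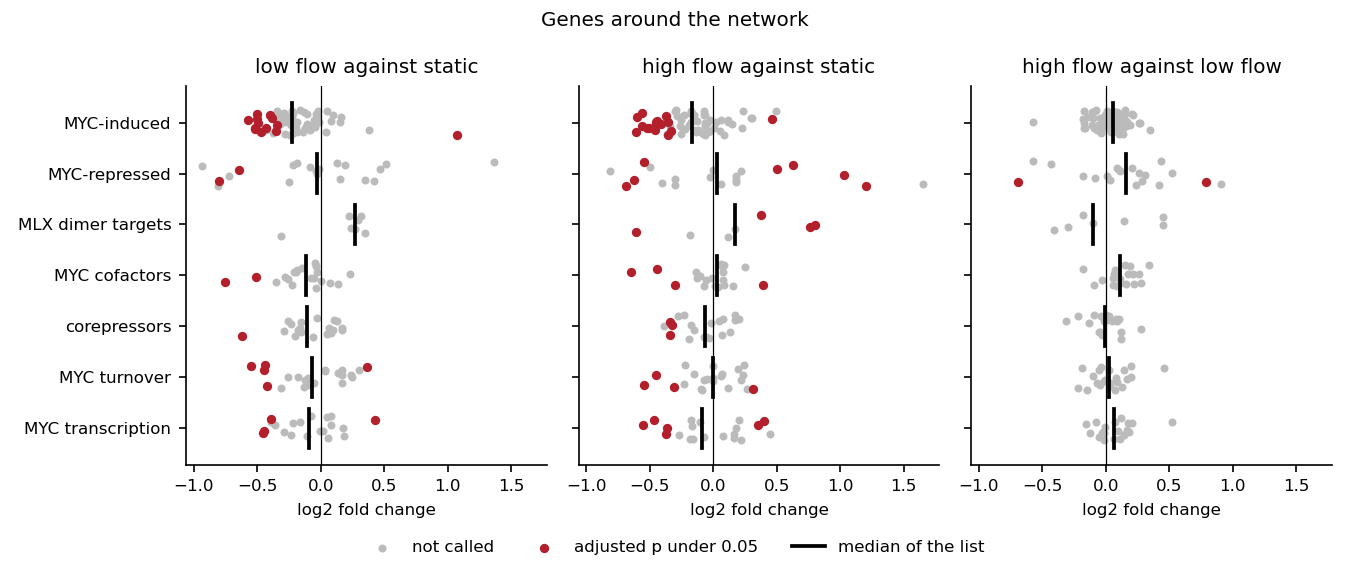
Log2 fold change (horizontal axis) of every tested gene of 7 lists around the network, in the 3 comparisons; points are genes, red where the adjusted p was under 0.05, and vertical bars are list medians. The MYC-induced list has its median at -0.23 at low flow and -0.17 at high flow against static, and 0.06 between the flow rates, where no gene of it is red.

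Cofactors, corepressors and regulators of MYC were read for their transcripts only, since no protein was measured. Over all genes tested 3.49% were lower and 3.25% higher at low flow, and 6.43% lower and 7.49% higher at high flow, and with lists this small a count of 1 or 2 is near that background and says nothing about the list. Of 20 cofactors 2 were lower at low flow, and 3 were lower and 1 higher at high flow. With length and GC offsets 6 were lower at low flow and none higher, and 5 were lower and 1 higher at high flow. Over all genes the fit with offsets called 1001 lower and 756 higher at low flow, and 1073 lower and 879 higher at high flow. TFAP4, a bHLH factor induced by MYC, had 37.2 and 36.1 CPM in static cells, 22.5 and 20.9 CPM at low flow and 23.9 and 23.02 CPM at high flow (edgeR adjusted p = 0.000763 at low flow and 0.00106 at high flow). RUVBL1, an ATPase of the TIP60 complex, was at -0.51 at low flow (adjusted p = 0.00790) and -0.44 at high flow (adjusted p = 0.00801). At high flow ACTL6A was also lower (-0.30, adjusted p = 0.0491), and CDK9, the elongation kinase, was higher (0.39, adjusted p = 0.0138).

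Of 20 genes of the corepressor complexes used by MXD proteins, MNT and MGA, 1 was lower at low flow, against 3.49% of all genes tested, and 3 at high flow, against 6.43%, and none was higher by edgeR, by DESeq2 or at an unadjusted p under 0.05. SAP30, a SIN3 subunit, had 20.6 and 19.1 CPM at low flow, against 29.6 and 31.3 CPM in static cells (-0.62, SE 0.11, edgeR adjusted p = 0.00506). At high flow SAP30 (-0.34, adjusted p = 0.0465), CBX3 (-0.34, adjusted p = 0.0247) and RYBP (-0.32, adjusted p = 0.0362), the last 2 from the complex that MGA scaffolds, were lower. With length and GC offsets RYBP kept its call at high flow, and CBX3 and SAP30 did not (adjusted p = 0.165 and 0.0985).

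Among 22 genes of MYC protein turnover, 4 were lower and 1 higher at low flow, against 3.49% and 3.25% of all genes tested, and 3 lower and 1 higher at high flow, against 6.43% and 7.49%. At low flow the mitotic kinases PLK1 (-0.55, edgeR adjusted p = 0.00681) and AURKA (-0.42, adjusted p = 0.0221), which can stabilise MYC proteins, the phosphatase inhibitor CIP2A (-0.45, adjusted p = 0.0230) and the ubiquitin ligase SKP2 (-0.44, adjusted p = 0.0312) were lower. FBXO32, another ligase of MYC, was higher (0.37, adjusted p = 0.0381). At high flow CIP2A (-0.55, adjusted p = 0.00462), SKP2 (-0.45, adjusted p = 0.0172) and SET (-0.31, adjusted p = 0.0437) were lower and ARAF was higher (0.31, adjusted p = 0.0439).

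Of 20 regulators of MYC transcription, 3 were lower and 1 higher at low flow, against 3.49% and 3.25% of all genes tested, and 4 lower and 2 higher at high flow, against 6.43% and 7.49%. CTNNB1, which encodes beta-catenin, had 565 and 535 CPM in static cells, 706 and 776 CPM at low flow and 709 and 740.1 CPM at high flow (edgeR adjusted p = 0.0182 at low flow and 0.0156 at high flow). FUBP1, an activator at the far-upstream element of MYC, was at -0.40 at low flow (adjusted p = 0.0266) and -0.55 at high flow (adjusted p = 0.00241). NFKB1 was at -0.45 and -0.47 and NME2 at -0.44 and -0.37, all called, and at high flow CDK7 was lower (-0.36, adjusted p = 0.0328) and MAZ higher (0.35, adjusted p = 0.0329). NME2 shares near-identical sequence with NME1, so its counts are uncertain. PVT1, the long RNA next to MYC, had 24.5 and 22.2 CPM in static cells, 19.5 and 16.2 CPM at low flow and 17.6 and 21.1 CPM at high flow. It passed in neither comparison with static (adjusted p = 0.0796 at low flow and 0.176 at high flow).

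Between the flow rates no gene of the lists of cofactors, corepressors, turnover or transcription regulators passed by edgeR. At an unadjusted p under 0.05, 4 cofactors, 1 corepressor and 1 turnover gene were higher, 1 corepressor and 1 turnover gene were lower, and none of the transcription regulators was either. The share of all genes at that unadjusted p is not given here, and nothing is read from these counts. DESeq2 called 1 turnover gene higher and no gene of the other 3 lists. Over all genes DESeq2 called 89 higher and 27 lower.

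The calls named from the lists, like those of the members, rested on few libraries. MLXIP and ARRDC4, described above, are left out of these counts. At low flow against static, 16 of the 19 named were lost without the second static library, 14 without the second low flow library, 10 without the first static library and 3 without either high flow library, and TFAP4 alone was kept in all 6 fits. At high flow against static, 26 of the 32 named were lost without the first high flow library, 25 without the second static library, 18 without the second high flow library and 12 without the first static library. CDKN1A, KLF10, TFAP4 and THBS1 were kept in all 6. THBS1 and CDKN1B, called between the flow rates, were both lost without either high flow library, and THBS1 also without either static library. With length and GC offsets, 1 named call was lost at low flow against static, GADD45A, 9 at high flow against static, including ACTL6A, ARAF, CDK7, MAZ, SET and VLDLR, and 1 between the flow rates, THBS1 (adjusted p = 0.0799).

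The genes whose profile was most like that of MYC were ranked by the root mean square distance between log2 CPM profiles, each centred on its own mean, over the 6 libraries. The 10656 genes ranked averaged 10 CPM or more. The 4 nearest were TUBA4A (0.0817), PPP1R10 (0.0827), PLK2 (0.112) and FOSL1 (0.121). TUBA4A, a tubulin, had 118 and 116 CPM in static libraries, 103 and 80.3 CPM at low flow and 142 and 123 CPM at high flow. PPP1R10, a regulatory subunit of protein phosphatase 1, had 108 and 106 CPM in static libraries, 82.0 and 73.5 CPM at low flow and 125 and 110.5 CPM at high flow. As in MYC, the second low flow library was the lowest of the 6 and the first high flow library the highest in both. These genes were picked for nearness to MYC over the same 6 libraries. The shared order follows from that choice and is no separate result.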

How the data were processed

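The authors deposited raw counts per gene symbol, 1 column for each of the 6 libraries. Per the labels' protocols, RNA was extracted with TRIzol and poly(A) libraries were made with a stranded KAPA kit. STAR, featureCounts and hg38 are named in the submitters' processing notes, and the sources used here do not give the annotation. Gene positions, exon lengths and transcript GC came from GENCODE 29 on GRCh38, with 55528 symbols matched to 1 gene.

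Computed here: counts were fitted with edgeR 4.0.16 in R 4.3.3 (TMM, robust quasi-likelihood test, minimum count 10, all 6 libraries, 3 residual degrees of freedom, two-sided). P-values were adjusted by Benjamini-Hochberg over 20676 genes per comparison. SEs come from the test statistic. CPM uses TMM-scaled totals, and CPM per kb divides by the exon union. The fit was checked on simulated counts. The 2 libraries of each condition were not copies of 1 library (chi-square per degree of freedom 13.3 to 33.2). Alternatives were DESeq2 1.42.0, RLE, no filter, offsets, a replicate block, fewer libraries and each library left out.

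The members and the 8 lists were chosen with earlier results of these data known. Named genes were all members, MXI1, MLXIP, MLXIPL, TXNIP, ARRDC4, PVT1, up to 4 genes called per list, direction and comparison by smallest p, and the 5 most like MYC, of which 1 is not reported here.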

Additional observations from a re-analysis of the deposited data

Results flagged for a closer look

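MYC is listed because its difference from static was not the same at the 2 flow rates. Its log2 fold change against static was 0.32 at high flow and -0.40 at low flow, and the difference between them, high flow against low flow, was 0.72 (SE 0.11). The lower MYC of the low flow libraries was known before the gene was listed, so this difference was not tested independently and is a description. Both high flow libraries were above, and both low flow libraries below, the static ones. High flow and its lane cannot be told apart.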

How the results depend on the processing

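At low flow against static, 1394 genes and 4 members were called. The gene count was 2260 without the expression filter, 907 with a replicate block and 604 with only the 4 libraries compared, and 95 to 3111 when each library was left out in turn. The members called were 2 with the replicate block, 1 with only the 4 libraries and 0 to 4 in leave-one-out fits. At high flow against static, 2878 genes (300 to 4004 in leave-one-out fits) and 3 members (1 to 4) were called. At high flow against low flow, 69 genes were called: 241 without the filter, 39 with length and GC offsets, 36 with only the 4 libraries, 116 by DESeq2 and 4 to 294 in leave-one-out fits. The 1 member, MYC, gave 0 to 1 in leave-one-out fits.

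FASN at high flow against static reversed with length and GC offsets, from a log2 fold change of 0.38 to -0.14 (adjusted p = 0.292). No member reversed: of 322 member values under the 12 alternatives, 283 kept direction and side of the threshold or were uncalled in both, 32 lost the call and 7 gained it, and 20 of the 283 changed sign while uncalled. MYC at high flow against static was called under 4 alternatives. The labels do not say that library numbers pair the libraries, so the block carries no pairing stated there. Same-numbered deviations correlated at -0.301 (static and low flow), 0.0808 (static and high flow) and 0.0475 (low and high flow) over 12667 genes. With 2 libraries per condition these values cannot show whether the libraries were paired. In fits that left 1 library in a condition, that library was assumed to vary like the others. The cause of these changes was not tested. With 2 libraries per condition, 1 library can decide a call.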
